A study of Mus musculus with 8 samples.

Results

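The 10 core circadian clock genes Clock, Arntl (also named Bmal1), Npas2, Per1, Per2, Per3, Cry1, Cry2, Nr1d1 and Dbp were followed in sorted mouse lung endothelial cells. They were picked by symbol from the 31610 genes of the count table, with their levels in these same libraries already known, so their values are given as a description and not as a test. All 10 were in the table and all 10 passed the filter on low counts. The cells came from lungs of C57BL/6J mice and were isolated by flow cytometry. Control AAV had been given to the mice behind 4 libraries and nANGPTL4 AAV to the mice behind the other 4. In each group, values listed in series run from library 1 to library 4. An AAV is an adeno-associated virus used to deliver a gene, and nANGPTL4 is the N-terminal fragment of a secreted inhibitor of lipoprotein lipase. The labels do not give age, sex, the promoter of the vector, its dose or the hour at which lungs were taken, so a group difference and a difference in hour of collection cannot be told apart. The nANGPTL4 AAV group is named by its treatment label, while its titles call the samples NT Treated, with NT left undefined.

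The mammalian clock is a transcriptional feedback loop. CLOCK or its relative NPAS2 pairs with BMAL1, the product of Arntl, and this pair switches on the Per and Cry genes, Nr1d1 and Dbp through E-box sequences. The PER and CRY proteins then block the pair, and REV-ERB alpha, the product of Nr1d1, represses Arntl, Npas2, Clock and Cry1 in competition with ROR activators. In most mouse tissues, lung included, Arntl and Npas2 therefore peak in opposite phase to Nr1d1, Dbp and the Per genes. Below, the activator arm is Arntl, Clock, Npas2 and Cry1, with Cry1 placed there because it shares REV-ERB control, and the repressor and output arm is Per1, Per2, Per3, Cry2, Nr1d1 and Dbp.

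Promoter sequences are shown for members with a match to a clock element, for the pair of members that varied most alike, Nr1d1 and Dbp, and for Ciart, a clock repressor picked after its level was seen to follow that of Per1. They come from RefSeq (GRCm38.p6), run 5′ to 3′ on the strand of the gene, and cover 250 bases before to 50 after an annotated start. Capitals mark matches on either strand to the E-box CACGTG, the D-box TTATGTAA or TTACGTAA, or the ROR/REV-ERB element.
Arntl, chr7:113207261-113207560, plus strand: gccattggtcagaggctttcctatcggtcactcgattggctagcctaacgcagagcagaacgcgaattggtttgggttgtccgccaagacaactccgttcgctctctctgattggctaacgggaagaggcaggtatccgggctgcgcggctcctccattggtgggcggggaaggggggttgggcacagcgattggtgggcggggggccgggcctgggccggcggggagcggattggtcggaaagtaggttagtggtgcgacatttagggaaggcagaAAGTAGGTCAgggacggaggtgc
Cry1, chr10:85185005-85185304, minus strand: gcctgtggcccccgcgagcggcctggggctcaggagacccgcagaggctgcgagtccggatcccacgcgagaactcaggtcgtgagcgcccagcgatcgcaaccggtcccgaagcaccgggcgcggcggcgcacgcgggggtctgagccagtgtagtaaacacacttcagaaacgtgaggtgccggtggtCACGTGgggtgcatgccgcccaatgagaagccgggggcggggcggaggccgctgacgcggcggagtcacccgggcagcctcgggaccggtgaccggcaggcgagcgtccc
Per1, chr11:69098699-69098998, plus strand: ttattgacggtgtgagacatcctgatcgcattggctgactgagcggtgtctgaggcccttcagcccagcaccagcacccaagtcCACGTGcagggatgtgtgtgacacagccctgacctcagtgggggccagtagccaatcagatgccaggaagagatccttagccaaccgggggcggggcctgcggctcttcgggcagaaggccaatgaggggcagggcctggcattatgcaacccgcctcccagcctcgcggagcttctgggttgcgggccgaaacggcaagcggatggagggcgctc
Per3, chr4:151044616-151044915, minus strand: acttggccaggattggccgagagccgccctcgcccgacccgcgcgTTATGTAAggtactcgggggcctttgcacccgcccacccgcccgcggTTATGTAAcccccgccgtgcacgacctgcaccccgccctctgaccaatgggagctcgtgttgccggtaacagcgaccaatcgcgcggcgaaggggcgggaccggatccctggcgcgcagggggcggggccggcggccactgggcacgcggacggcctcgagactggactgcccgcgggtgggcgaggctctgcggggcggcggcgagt
Ciart, chr3:95882179-95882478, minus strand: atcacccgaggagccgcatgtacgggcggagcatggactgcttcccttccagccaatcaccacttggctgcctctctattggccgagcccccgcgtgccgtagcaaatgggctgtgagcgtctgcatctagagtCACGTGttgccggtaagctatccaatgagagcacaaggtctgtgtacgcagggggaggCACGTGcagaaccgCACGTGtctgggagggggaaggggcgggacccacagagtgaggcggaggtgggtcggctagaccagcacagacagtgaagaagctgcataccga
Nr1d1, chr11:98775328-98775627, minus strand: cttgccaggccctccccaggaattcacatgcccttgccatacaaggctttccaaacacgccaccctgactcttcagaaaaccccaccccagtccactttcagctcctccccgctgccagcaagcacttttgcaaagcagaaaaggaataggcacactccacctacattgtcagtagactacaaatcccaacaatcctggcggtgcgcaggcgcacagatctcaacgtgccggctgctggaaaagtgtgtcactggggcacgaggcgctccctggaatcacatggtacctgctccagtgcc
Dbp, chr7:45704997-45705296, plus strand: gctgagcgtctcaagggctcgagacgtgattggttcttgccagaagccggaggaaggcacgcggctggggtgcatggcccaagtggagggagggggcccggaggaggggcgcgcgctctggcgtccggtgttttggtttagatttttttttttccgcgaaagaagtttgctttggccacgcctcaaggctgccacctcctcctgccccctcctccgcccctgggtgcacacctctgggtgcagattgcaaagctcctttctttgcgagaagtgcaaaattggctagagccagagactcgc

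The ROR/REV-ERB element of Arntl, AAGTAGGTCA, begins 28 bases after the start used for its second annotated promoter. The E-box begins 60 bases before the start in Cry1. In Per1 it begins 166 bases before the start of the first of 2 annotated promoters, and the second holds none. Per3 holds a pair of D-boxes, the element bound by DBP, TEF and HLF, beginning 205 and 158 bases before its start. Ciart holds 3 E-boxes. Of 9 further loop genes with a promoter entry, 3 held the E-box (Bhlhe41, Ciart and Tef). Of the 9 members with a promoter in the table (Per2 had no entry), 2 held the E-box, 1 a D-box, 1 the ROR/REV-ERB element and 0 the cAMP response element TGACGTCA. Counted by window, as the table lists them, these 9 members had 13 windows, of which 2, 1, 1 and 0 held the 4 elements. Over all 32851 promoter windows the shares were 7.15%, 1.06%, 0.773% and 1.79%. No searched letters occur in these windows of Nr1d1 and Dbp, which says nothing of sequence outside them.

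The deposited read counts summed to between 83183122 and 114337333 per library. Each member was covered by at least 88 counts in every library, the lowest being Npas2 in control AAV library 1. Endothelial markers were abundant in both groups, with 8 markers (Pecam1, Cdh5, Tek, Kdr, Flt1, Erg, Emcn and Cldn5) summing to 12751 to 13526 CPM, read counts scaled to library size, in control AAV and 12354 to 12975 CPM in nANGPTL4 AAV. Of these 8, 7 had a log2 fold change below 0 and 0 were called by edgeR. The VEGF receptor gene Flt1 (-0.15, SE 0.04, edgeR adjusted p = 0.114) and the angiopoietin receptor gene Tek (-0.13, SE 0.05, edgeR adjusted p = 0.249) were lower in every nANGPTL4 AAV library than in every control AAV library, by about as much as Arntl below. Over all genes tested, 6.99% were lower without overlap in this way. With library size only, the groups of Tek overlapped, while those of Flt1 stayed apart. Beside the endothelial sums, markers of other cells were present at low levels. The 8 lymphocyte markers summed to 1.87 to 2.35 and 2.47 to 5.69 CPM, the 8 myeloid markers to 15.2 to 37.3 and 27.7 to 47.4 CPM, and the 9 epithelial markers to 79.3 to 216 and 172 to 292 CPM. The 7 fibroblast and mural markers summed to 33.9 to 76.4 and 40.2 to 94.0 CPM, and the 8 erythroid and platelet markers to 47.9 to 91.0 and 77.4 to 89.4 CPM. The lymphocyte sums did not overlap between the groups, but the gap was narrow, from 2.35 to 2.47 CPM. The highest sum, 5.69 CPM, was that of nANGPTL4 AAV library 2. All 4 lymphocyte, 3 myeloid and 8 erythroid and platelet markers that were tested had a log2 fold change above 0. So did 7 of 9 epithelial and 5 of 7 fibroblast and mural markers, beside 9860 of all 18874 genes tested. No marker was at 0 in all libraries, and Cd3g and Itgam stayed under 0.1 CPM in each. The club cell secretoglobin Scgb3a2 was the only marker of these lists called by edgeR (log2 fold change 1.30, SE 0.19, edgeR adjusted p = 0.0369), at 0.257 to 0.375 CPM in control AAV and 0.701 to 0.952 CPM in nANGPTL4 AAV. Over all genes tested, edgeR called 0.138%. Of the markers tested, Scgb3a2, Scgb1a1 and Cd68 were higher without overlap in nANGPTL4 AAV, as were 3.89% of all genes. The part of these cells in the clock values was not tested. In bulk libraries fewer cells of a type and less RNA per cell cannot be told apart.

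Per kilobase of exon, so that genes can be compared with each other, Per1 was the most abundant member in control AAV at 9.54 ± 3.15 CPM per kb (SD, n = 4). Cry1 at 6.41 ± 0.345, Nr1d1 at 5.88 ± 1.47, Arntl at 5.75 ± 0.0813 and Clock at 5.58 ± 0.0890 CPM per kb followed, and each of these 5 overlapped its neighbour in the order. Cry2 (2.96 ± 0.420), Per2 (1.83 ± 0.331), Dbp (0.884 ± 0.0869), Per3 (0.610 ± 0.0311) and Npas2 (0.265 ± 0.0584 CPM per kb) came below, with ranges over libraries that did not touch those of their neighbours. In nANGPTL4 AAV, Nr1d1 and Per1 shared the top at 10.2 ± 5.20 and 10.2 ± 5.28 CPM per kb. Arntl, Cry1 and Clock stood at 5.25 ± 0.205, 5.20 ± 0.348 and 4.83 ± 0.249 CPM per kb, with overlapping ranges. Cry2 (3.32 ± 0.362), Per2 (1.40 ± 0.304) and Dbp (1.27 ± 0.389 CPM per kb) followed, the last 2 with overlapping ranges, and Per3 (0.705 ± 0.0433) and Npas2 (0.324 ± 0.0229 CPM per kb) were again lowest.

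Clock, Arntl and Cry1 were lower in every nANGPTL4 AAV library than in every control AAV library. Clock (mm10 chr5:76209868-76304792, minus strand), the DNA-binding partner of BMAL1, was at 78.3, 75.7, 76.3 and 75.9 CPM in control AAV and at 64.6, 64.7, 64.5 and 71.4 CPM in nANGPTL4 AAV. The control libraries lay close together, and nANGPTL4 AAV library 4 stood between them and the other 3. The log2 fold change of Clock, nANGPTL4 AAV minus control AAV, was -0.21 (SE 0.04). Arntl (chr7:113207465-113314126, plus strand) was at 42.9, 44.0, 42.6 and 43.6 CPM in control AAV and at 41.3, 38.1, 38.4 and 40.3 CPM in nANGPTL4 AAV, a log2 fold change of -0.13 (SE 0.04). Its gap between the groups was narrow, from 42.6 to 41.3 CPM, and closed with upper quartile scaling or library size only. Cry1 (chr10:85131700-85185064, minus strand), a repressor of the CLOCK and BMAL1 pair, was at 21.2, 20.2, 23.0 and 21.3 CPM in control AAV and at 18.6, 18.0, 17.0 and 15.9 CPM in nANGPTL4 AAV. Its log2 fold change was -0.30 (SE 0.06), and its groups stayed apart under all 4 scalings run.

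Clock and Arntl varied least among replicates of a group. The coefficient of variation of CPM was 1.6% in control AAV and 5.15% in nANGPTL4 AAV for Clock, 1.41% and 3.91% for Arntl, 5.09% and 6.14% for Per3, and 5.37% and 6.69% for Cry1. Npas2 (chr1:39193731-39363236, plus strand), which can stand in for Clock, was the exception in the activator arm. It ranged from 0.966 to 1.56 CPM in control AAV and from 1.45 to 1.65 CPM in nANGPTL4 AAV, with overlapping groups and a log2 fold change of 0.29 (SE 0.17).

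Nr1d1 varied most between libraries of all members, by 4.31-fold from the lowest to the highest. The gene (chr11:98767932-98775333, minus strand) encodes the nuclear receptor REV-ERB alpha, which represses Arntl. Nr1d1 was at 20.0, 17.6, 12.1 and 22.7 CPM in control AAV and at 12.9, 29.8, 52.0 and 31.3 CPM in nANGPTL4 AAV. Libraries 2, 3 and 4 of nANGPTL4 AAV were above all controls, while nANGPTL4 AAV library 1 was below all but one of them. The log2 fold change was 0.80 (SE 0.33), and it was 0.46 without nANGPTL4 AAV library 3 and 1.07 without nANGPTL4 AAV library 1.

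Dbp (chr7:45705088-45710203, plus strand), an output gene of the clock that encodes a D-box transcription factor, was high in the same 3 libraries. It was at 2.54, 2.45, 2.56 and 3.03 CPM in control AAV and at 2.45, 3.85, 5.28 and 3.58 CPM in nANGPTL4 AAV. Again nANGPTL4 AAV library 3 was highest, libraries 2 and 4 of that group lay above all controls, and library 1 lay among the controls. The log2 fold change was 0.52 (SE 0.20), 0.33 without nANGPTL4 AAV library 3. Parts of both genes lie under a neighbour on the other strand, with 18.0% of the exonic bases of Dbp shared with Sphk2 and 8.55% of those of Nr1d1 with Thra, and since no strand setting is given in the sources used here their counts are less certain. Sphk2 was at 42.1 ± 3.61 and 41.3 ± 4.68 CPM and Thra at 85.7 ± 4.53 and 91.6 ± 7.24 CPM (SD, n = 4 each), and in nANGPTL4 AAV library 3, where Dbp and Nr1d1 were highest, they were at 41.8 and 91.3 CPM. Both neighbours were highest in nANGPTL4 AAV library 2, at 47.5 and 102 CPM, where Dbp and Nr1d1 were also above all controls.

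**Figure D1:**
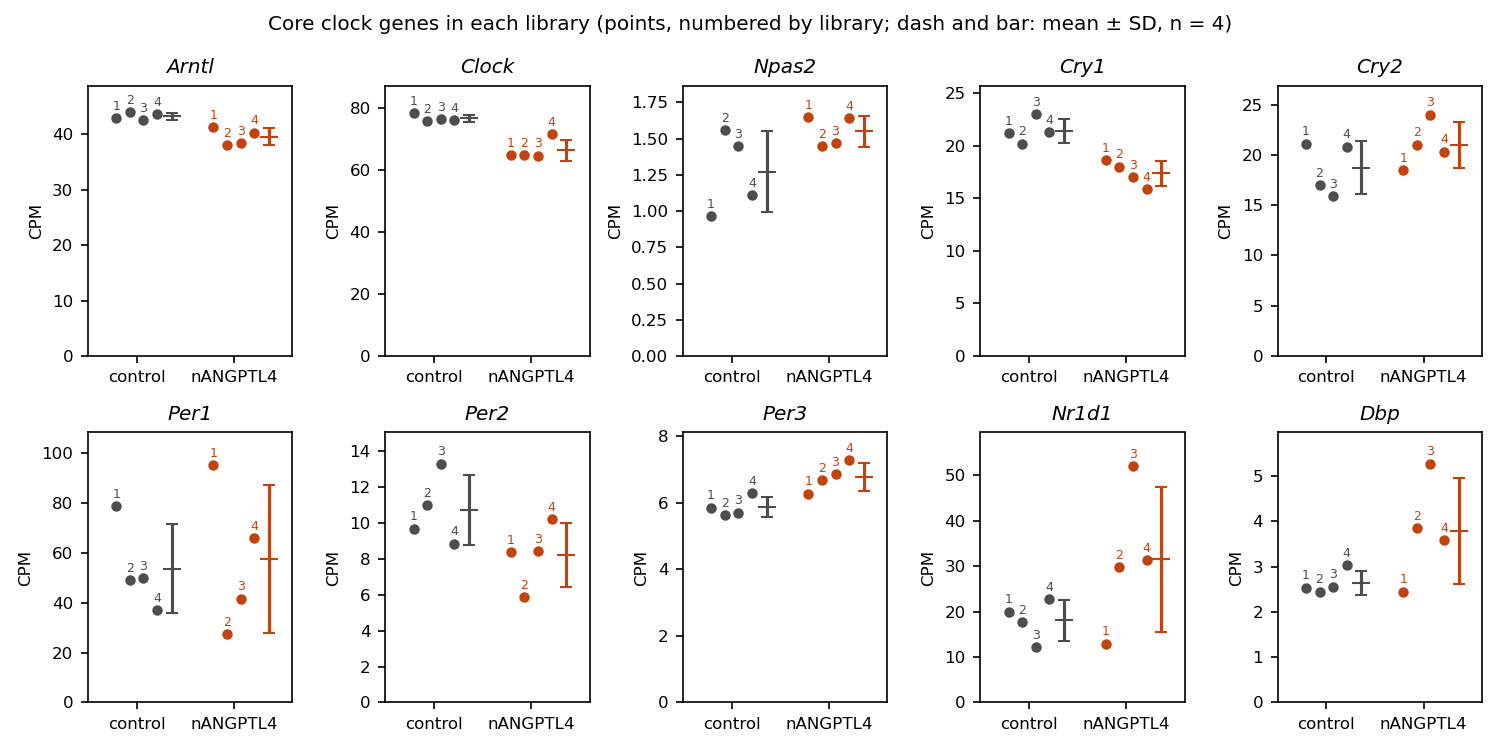
CPM of each clock gene (vertical axis from 0) in the 4 control AAV libraries (grey) and 4 nANGPTL4 AAV libraries (orange), numbered by library, with the mean and SD beside them. Clock, Arntl and Cry1 are separated by group, while Nr1d1 and Dbp are high in nANGPTL4 AAV libraries 2 to 4 and Nr1d1 peaks at 52.0 CPM in library 3.

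The 3 period genes did not move alike. Per3 (chr4:151003652-151044665, minus strand), whose promoter window holds the D-boxes, was at 5.85, 5.62, 5.70 and 6.29 CPM in control AAV and at 6.28, 6.68, 6.86 and 7.29 CPM in nANGPTL4 AAV. The groups met at control AAV library 4 and nANGPTL4 AAV library 1, which were practically tied, and the log2 fold change was 0.21 (SE 0.08). Per2 (chr1:91415982-91459324, minus strand), a core repressor, pointed the other way, at 9.68, 11.0, 13.3 and 8.85 CPM in control AAV and 8.38, 5.86, 8.41 and 10.2 CPM in nANGPTL4 AAV. Its groups overlapped, with nANGPTL4 AAV library 2 lowest and control AAV library 3 highest, and the log2 fold change was -0.38 (SE 0.16).

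Per1 (chr11:69095217-69109960, plus strand), which besides its E-box control is induced acutely by glucocorticoids and by cell stimulation, was at 78.8, 49.2, 50 and 36.9 CPM in control AAV and at 95.1, 27.3, 41.6 and 65.8 CPM in nANGPTL4 AAV. It spread 3.48-fold over the libraries with the highest and the lowest both in nANGPTL4 AAV. The log2 fold change was 0.10 (SE 0.34). It was -0.05 when control AAV library 4 was left out and -0.24 when nANGPTL4 AAV library 1 was, so Per1 had no stable direction. The 8 glucocorticoid-induced genes of the list (Fkbp5, Tsc22d3, Zbtb16, Sgk1, Pdk4, Cdkn1a, Errfi1 and Sult1a1) summed to 2375, 1745, 2125 and 1855 CPM in control AAV and 2347, 1449, 1806 and 2151 CPM in nANGPTL4 AAV. The 4 libraries with most Per1 were the 4 with the highest of these sums, and nANGPTL4 AAV library 2 was lowest in both. Sgk1, Cdkn1a and Tsc22d3 made up most of the sum, and Fkbp5 of the same list was lowest, at 5.18 CPM, in nANGPTL4 AAV library 1, where Per1 was highest. The 12 immediate early genes, which respond within minutes to stimulation or tissue dissociation, summed to 17800, 11515, 13455 and 15410 CPM and to 18420, 13752, 16525 and 17193 CPM. Library 1 of each group and nANGPTL4 AAV library 4 were highest in this sum too, but control AAV library 3, the fourth in Per1, was second lowest. The part of either response in Per1 was not tested.

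Cry2 (chr2:92403646-92434043, minus strand), the other cryptochrome, ranged from 15.9 to 21.1 CPM in control AAV and from 18.5 to 24.0 CPM in nANGPTL4 AAV. Its groups overlapped and its log2 fold change was 0.16 (SE 0.11), against -0.30 for Cry1.

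In the edgeR quasi-likelihood test, 0 of the 10 members passed an adjusted p of 0.05, where 0.138% of the 18874 genes tested did (0.0477% higher and 0.0901% lower in nANGPTL4 AAV, 9 and 17 genes, but 3 and 1 with upper quartile scaling or library size only). At an adjusted p under 0.1 there were 2 members, Clock and Cry1, beside 2.5% of all genes and 1.89% in the lower direction. At an unadjusted p under 0.05 there were 7 members, 3 higher and 4 lower, beside 17.6% of all genes. DESeq2 called 2 members, Clock and Cry1, both lower, where it called 6.14% of the genes it adjusted (1.98% higher, 4.16% lower), and limma-voom called 0, beside 0.111% of all genes, with 4 members at an unadjusted p under 0.05 beside 18.3%. The groups did not overlap in 3 members, all lower in nANGPTL4 AAV, as in 6.99% of all genes in that direction and 3.89% in the other (10.9% in all). Scaling moved this count: Per3 was higher without overlap under the other 3 scalings run, and Arntl overlapped under 2 of them. The members were chosen with these levels in view, so nothing is read from these counts. The median log2 fold change was -0.17 over the activator arm, 0.19 over the repressor and output arm and 0.01 over all genes tested.

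**Figure D2:**
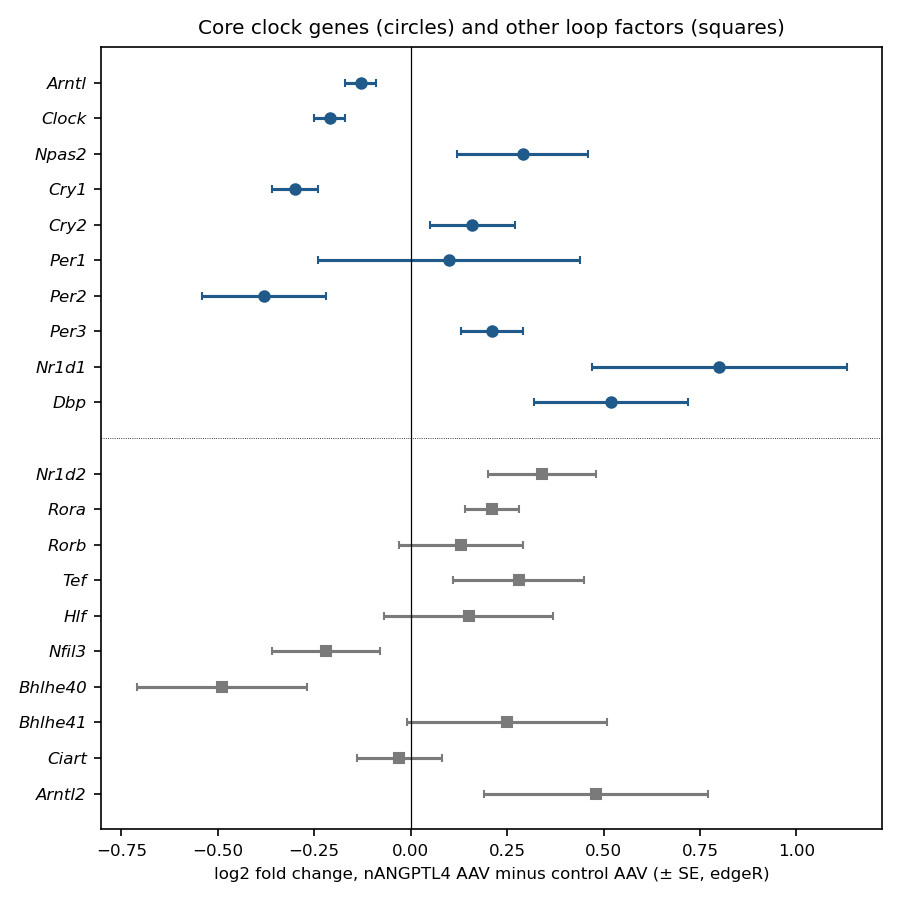
Log2 fold change (horizontal axis, nANGPTL4 AAV minus control AAV) with its SE from edgeR for the 10 clock genes (circles) and 10 other loop factors (squares). Clock, Arntl and Cry1 lie below 0 with short bars, and Nr1d1 lies farthest above 0, at 0.80, with a long bar.

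Ratios of counts within a library do not depend on the scaling between libraries. The ratio of Nr1d1 to Arntl counts was 0.467, 0.400, 0.283 and 0.521 in control AAV and 0.311, 0.783, 1.35 and 0.776 in nANGPTL4 AAV. Of the 8 libraries, nANGPTL4 AAV library 3 alone had more Nr1d1 than Arntl counts. The ratio of Dbp to Arntl counts was 0.0591, 0.0557, 0.0602 and 0.0695 in control AAV and 0.0594, 0.101, 0.138 and 0.0888 in nANGPTL4 AAV. Library 1 of nANGPTL4 AAV stood among the controls in both ratios, and libraries 2 to 4 stood above all controls in both. Per1 and Per2 gave no such split, whereas Per3 relative to Arntl was higher in every nANGPTL4 AAV library than in every control AAV library. No share over all genes was computed for these ratios. The ratio of Per2 to Arntl counts was 0.226, 0.251, 0.312 and 0.203 in control AAV and 0.203, 0.154, 0.219 and 0.253 in nANGPTL4 AAV. The ratio of Per1 to Arntl counts was 1.84, 1.12, 1.17 and 0.848 against 2.3, 0.716, 1.09 and 1.63.

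Averaged over arms the picture was less separated. Each gene's log2 CPM was set against its own mean over the 8 libraries, and the activator mean was taken from the repressor and output mean. This arm difference was 0.08, -0.25, -0.30 and -0.08 in control AAV and -0.09, -0.04, 0.41 and 0.26 in nANGPTL4 AAV. The means were -0.14 ± 0.18 and 0.14 ± 0.24 (SD, n = 4 each), and the groups overlapped. Libraries 3 and 4 of nANGPTL4 AAV were highest and control AAV libraries 3 and 2 lowest. Without Per1, the arm difference was -0.28, 0.12, 0.54 and 0.24 in nANGPTL4 AAV and -0.03, -0.26, -0.33 and 0.00 in control AAV, which placed nANGPTL4 AAV libraries 2 to 4 above all controls and library 1 between the 2 lowest controls. The difference between the group means was 0.27 with all members and 0.31 without Per1, a choice made after the data were seen. It was 0.20 without Cry1, 0.23 without Clock and Cry2, and 0.18 without nANGPTL4 AAV library 3.

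**Figure D3:**
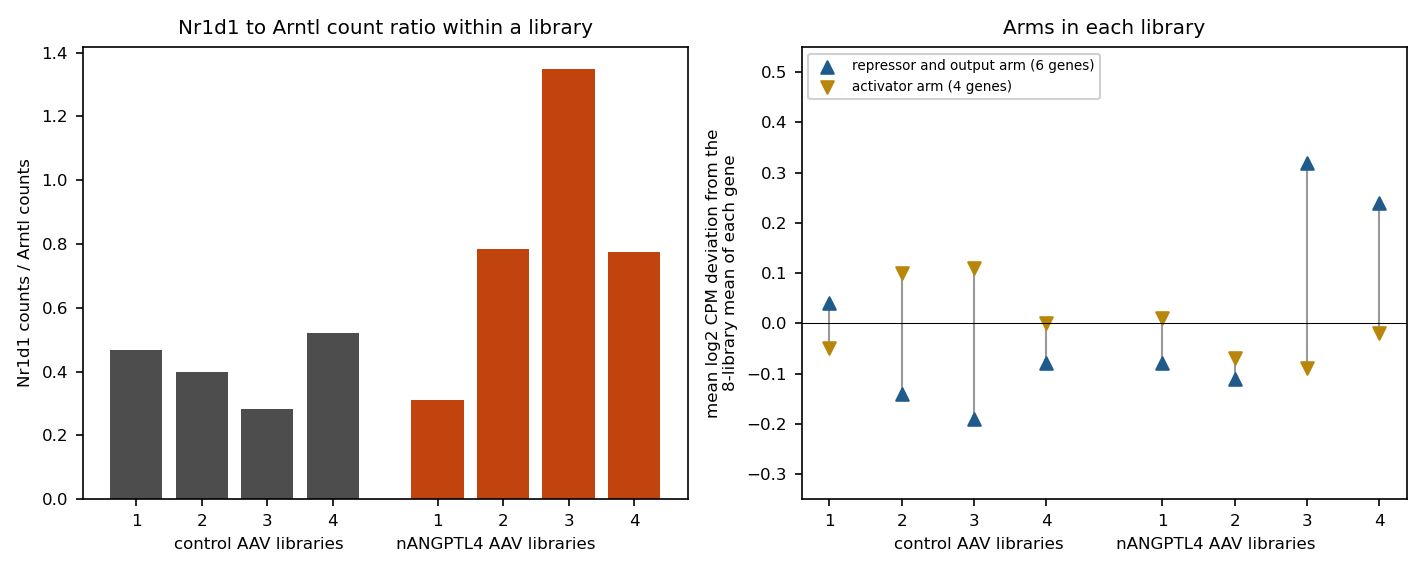
Left, counts of Nr1d1 divided by counts of Arntl in each library (bars from 0). Right, mean log2 CPM deviation of the repressor and output arm (6 genes) and of the activator arm (4 genes) in each library, joined by a line, with nANGPTL4 AAV library 3 showing the widest gap with the repressor and output arm on top, 0.41.

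Of the 10 other loop factors, all were tested and 0 were called by edgeR, with 3 at an unadjusted p under 0.05 (2 higher, 1 lower). DESeq2 and limma-voom called 0, with 2 each at that p. Over all genes tested, 17.6% had such a p in edgeR and 18.3% in limma-voom, and the share for DESeq2 was not computed. The median log2 fold change of the loop factors was 0.18, with 7 positive and 3 negative. Nr1d2, the REV-ERB beta gene, was at 35.1, 26.0, 24.0 and 30.5 CPM in control AAV and 30.6, 30.8, 42.8 and 42.4 CPM in nANGPTL4 AAV. Its log2 fold change was 0.34 (SE 0.14; adjusted p = 0.242 from edgeR), with libraries 3 and 4 of nANGPTL4 AAV above all others. Tef, a D-box factor related to Dbp, was also highest in those 2 libraries, at 29.5 and 27.1 CPM against 16.3 to 22.6 CPM in the rest, and 0.28 as log2 fold change (SE 0.17; edgeR adjusted p = 0.415). The third D-box activator, Hlf, was scarce at 0.389 to 0.741 CPM, with a log2 fold change of 0.15 (edgeR adjusted p = 0.760) that was -0.01 without nANGPTL4 AAV library 2.

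Rora, which encodes the ROR activator that opposes REV-ERB, was at 30.7, 27.5, 27.0 and 27.6 CPM in control AAV and 36.6, 30.0, 30.0 and 33.7 CPM in nANGPTL4 AAV. Only control AAV library 1 reached into the other group, and the log2 fold change was 0.21 (SE 0.07, edgeR adjusted p = 0.179). Its relative Rorb was scarce, at 0.811 to 1.17 CPM, with a log2 fold change of 0.13 (edgeR adjusted p = 0.729). Arntl2, the relative of Arntl, had only 16 to 36 counts per library, and its log2 fold change was 0.48 (SE 0.29, edgeR adjusted p = 0.420).

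The E-box repressor Bhlhe40 was at 33.8, 23.9, 37.9 and 27.9 CPM in control AAV and 30.6, 14.7, 16.9 and 25.9 CPM in nANGPTL4 AAV, with -0.49 as log2 fold change (SE 0.22; edgeR adjusted p = 0.281). It was lowest in nANGPTL4 AAV libraries 2 and 3, while in library 4, where Nr1d1 and Dbp were also above all controls, it lay within the control range. Nfil3, the D-box repressor, was likewise lowest in those libraries, at 7.59 and 8.01 CPM against 8.40 to 11.8 CPM elsewhere, and -0.22 as log2 fold change (SE 0.14; edgeR adjusted p = 0.448). Bhlhe41 was at 0.981 ± 0.323 and 1.16 ± 0.255 CPM (SD, n = 4 each; log2 fold change 0.25, edgeR adjusted p = 0.673), and 19.0% of its exonic bases lie under a predicted gene on the other strand. Ciart, a repressor of the CLOCK and BMAL1 pair, was at 29.2, 27.4, 28.6 and 23.7 CPM and 32.4, 22.0, 23.9 and 28.7 CPM, with -0.03 as log2 fold change (SE 0.11; edgeR adjusted p = 0.931) whose sign turned with upper quartile scaling or library size only (0.01 and 0.02). Its 8 libraries stood in the same order as those of Per1.

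**Figure D4:**
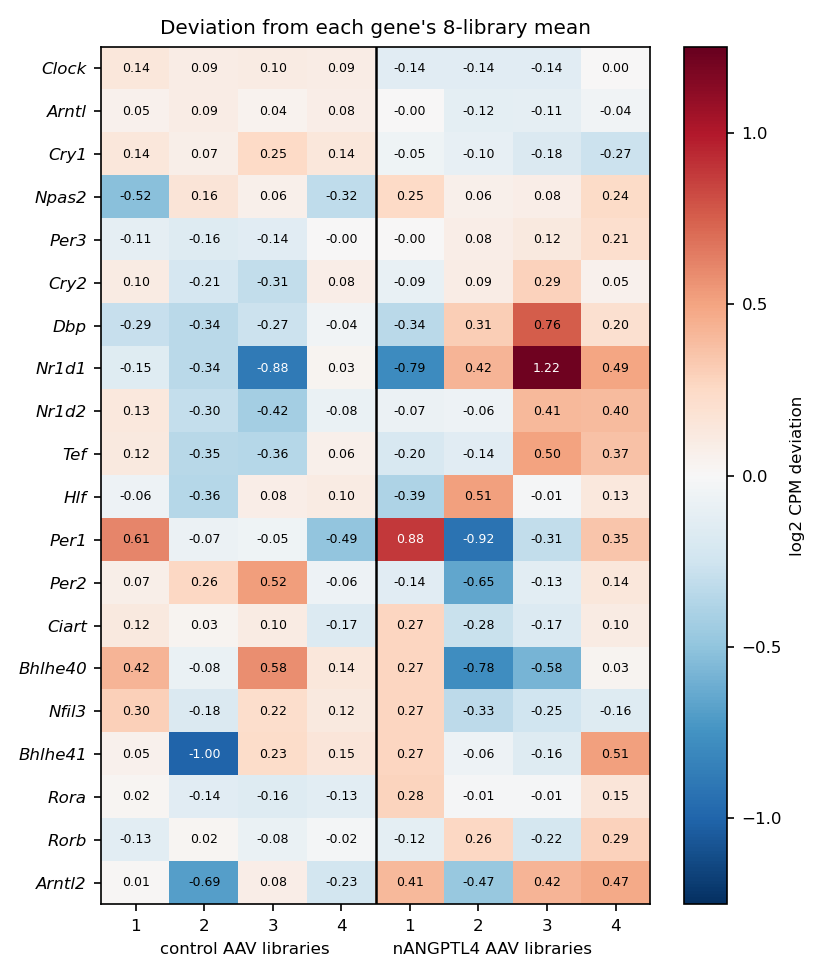
Log2 CPM of 10 clock genes and 10 other loop factors (rows) in each library (columns) as deviation from the gene's mean over 8 libraries, red above and blue below. Clock, Arntl and Cry1 split by group, Dbp, Nr1d1, Nr1d2 and Tef share their red in nANGPTL4 AAV library 3 (0.76, 1.22, 0.41 and 0.50), and Per1 and Ciart are both highest in nANGPTL4 AAV library 1.

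Of 12 genes for proteins that modify or degrade clock proteins, 0 were called by edgeR, DESeq2 or limma-voom. In edgeR 2 had an unadjusted p under 0.05, beside 17.6% of all genes. The median log2 fold change of the 12 was -0.06. The 4 with the smallest p were Ppp1cb, a catalytic subunit of protein phosphatase 1 (-0.17, SE 0.05, edgeR adjusted p = 0.125), Fbxw11, a ubiquitin ligase subunit that recognises PER proteins (-0.14, SE 0.04, edgeR adjusted p = 0.148), and the PER kinases Csnk1d (-0.11, edgeR adjusted p = 0.321) and Csnk1e (-0.08, edgeR adjusted p = 0.440). Ppp1cb and Fbxw11 were lower in every nANGPTL4 AAV library than in every control AAV library, as were 6.99% of all genes. With library size only, the groups of Ppp1cb overlapped. Of the exonic bases of Ppp1cb, 17.5% are shared with a predicted gene on the same strand.

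Of 12 genes that cycle in many tissues or are known targets of clock factors, 0 were called by edgeR or limma-voom. In edgeR 3 had an unadjusted p under 0.05, all lower, beside 17.6% of all genes in either direction. DESeq2 called 2 of the 12, Pparg and Nampt, where it called 6.14% of the genes it adjusted (4.16% lower). Pparg, a nuclear receptor of lipid metabolism, was at 1.71, 1.42, 1.26 and 1.54 CPM and 0.779, 0.632, 0.647 and 1.11 CPM, with -0.91 as log2 fold change (SE 0.20; edgeR adjusted p = 0.0755). Nampt, the rate-limiting enzyme of NAD salvage and an E-box target, was at 82.4, 79.4, 85.8 and 85.3 CPM and 73.4, 70.0, 78.3 and 73.9 CPM, with -0.17 as log2 fold change (SE 0.05; edgeR adjusted p = 0.110). In both genes every nANGPTL4 AAV library was below every control AAV library, as in 6.99% of all genes. With library size only, the groups of Nampt overlapped. Klf10, a Krüppel-like factor, had -0.67 as log2 fold change (SE 0.21; edgeR adjusted p = 0.147), and the cell cycle kinase gene Wee1 had -0.23 (SE 0.13, edgeR adjusted p = 0.360), both with overlapping groups.

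Of the 12 immediate early genes 0 were called by edgeR, DESeq2 or limma-voom. In edgeR 0 had an unadjusted p under 0.05, beside 17.6% of all genes. In DESeq2 2 did, in limma-voom 4 (beside 18.3% of all genes) and in edgeR with the replicate block 5. The shares over all genes for DESeq2 and the block were not computed, so nothing is read from those counts. All 12 log2 fold changes were positive, beside 9860 of all 18874 genes tested, and their median was 0.20. These genes share the same libraries, so their signs are not separate observations. Those with the smallest p were Ier2 at 0.24, Fos at 0.31 and Junb at 0.23 (edgeR adjusted p = 0.316, 0.319 and 0.345). Of the 8 glucocorticoid-induced genes 0 were called by edgeR, DESeq2 or limma-voom. In edgeR 1 had an unadjusted p under 0.05, beside 17.6% of all genes. The median log2 fold change of the 8 was -0.06. Sgk1 was at -0.17, Fkbp5 at -0.62 and Errfi1 at 0.22 (edgeR adjusted p = 0.266, 0.354 and 0.392), and Fkbp5 was -0.26 without control AAV library 1.

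To place Arntl and Dbp among all genes, log2 CPM over the 8 libraries was correlated with that of 10721 other genes, as a ranking only. These correlations share the same 8 libraries and their scaling. The genes most like Arntl were Arhgef26, Nipal2, Uqcc1, Mfsd14a and Ctps (Pearson r 0.96 to 0.97), and among those most opposed were Kcns1, Chchd3, Gadd45a and Dclre1a (r from -0.94 to -0.93). The genes most like Dbp were Zfp791, Bpgm, Tango2, Slc40a1 and Ssbp1 (r 0.92 to 0.94), and those most opposed were Prkar1a, Cnn2, Elk4, Ptpn14 and Cdca4 (r from -0.98 to -0.93). Only 3 of the 10721 genes had a larger absolute r with Dbp than Nr1d1 did, whereas 367 had a larger one with Arntl than Clock did.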

How the data were processed

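RNA of sorted lung endothelial cells was sequenced in 4 control AAV and 4 nANGPTL4 AAV libraries, and per the series' design text the replicates were independent. The authors deposited raw read counts for each Ensembl gene, without normalization, and the submitters' processing notes name mm10 as build. Aligner, counter, strand setting and annotation: not given in the sources used here. Libraries were amplified with a low-input kit, per the labels' protocols. The members and gene lists were chosen with earlier results of these data known. Named were all members, the other loop factors, and the 3 or 4 genes with the smallest p of each further list. For likeness the 5 highest and 5 lowest Pearson r were taken among genes with a mean log2 CPM of at least 1, without members and provisional symbols. A loop factor and a gene ranked by likeness are not reported here. Genes were kept by filterByExpr (minimum count 10) and scaled by TMM, and nANGPTL4 AAV was compared with control AAV over 18874 genes by the edgeR 4.0.16 quasi-likelihood test in R 4.3.3, with Benjamini-Hochberg adjustment. The SE is the absolute log2 fold change divided by the root of F. Log2 CPM used a prior count of 2. Positions and exon lengths came from GENCODE M21 and promoters from RefSeq. Of 31610 identifiers, 31491 matched a symbol. Replicate libraries differed by more than counting error (chi-square per degree of freedom 21.29 to 60.22). On counts simulated with known changes, the fit called 34% of genes changed 1.25-fold, 82% at 1.5-fold and 98% at 2-fold, and 6 unchanged genes. Alternatives were other scalings and filters, DESeq2 1.42.0, limma-voom (limma 3.58.1), a replicate block, each library left out, other arms and thresholds, and, added after the data were seen, the arms without Per1.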

Additional observations from a re-analysis of the deposited data

Results flagged for a closer look

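Of 68 groups of 4 libraries (34 genes in each treatment group), 4 held a library far from the other 3, judged by its gap to the nearest value over the group's range, where chance flags about 1 in 20 groups. Clock was at 71.4 CPM in nANGPTL4 AAV library 4 and at 64.5 to 64.7 CPM in the other 3. Arntl2 was at 0.168 CPM in nANGPTL4 AAV library 2 and at 0.324 to 0.340 CPM in the others, on few counts. Rora was at 30.7 CPM in control AAV library 1 and at 27.0 to 27.6 CPM in the others. Csnk1e was at 161 CPM in control AAV library 3 and at 148 to 150 CPM in the others.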

How the results depend on the processing

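The count of genes called over the whole table was 26 and moved to 4 with upper quartile scaling, 4 with library size only, 1 with the stricter low-count filter, 956 with DESeq2, 471 at an adjusted p under 0.1 and 1 to 2 when a library was left out. Over all genes tested, same-numbered libraries were not alike. Their deviations from the group means correlated at 0.02, 0.04, -0.20 and -0.17, and 1 of 8 libraries correlated best with its own number. In the sums of immediate early genes, however, library 1 was highest and library 2 lowest in both groups. Whether same-numbered libraries were collected or handled together was not tested. With the replicate number as a block 6 genes were called, 0 of them members. Members called went from 0 to 2 with DESeq2 and to 2 at an adjusted p under 0.1 (Clock and Cry1 in both). Genes called in the other clock lists went from 0 to 2 with DESeq2 (Nampt and Pparg). They went to 1 with the replicate block (Klf10, edgeR adjusted p = 0.0119) and to 1 at an adjusted p under 0.1 (Pparg). Nampt, Pparg and Klf10 are all from the list of genes that cycle or are targets of clock factors. The sign turned for Per1 without control AAV library 4 (-0.05) or nANGPTL4 AAV library 1 (-0.24), within a range of -0.24 to 0.35 over left-out libraries, and for Hlf without nANGPTL4 AAV library 2 (-0.01, range -0.01 to 0.29). It turned for Ciart with upper quartile scaling (0.01), library size only (0.02), limma-voom (0.02) and on leaving out a library (-0.12 to 0.07). Of the 20 genes ranked as most like or opposed to Arntl and Dbp, 5 were ranked so again by Spearman rho and 1 with group-centred values. Within the 150 bases nearest the start, 1 member held the E-box and 0 a D-box. The cause of these moves was not tested, except that the shorter window holds fewer bases and a left-out library leaves fewer samples. The other 9 members kept their sign in each alternative.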

Other observations

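Over all 8 libraries Clock correlated with Arntl at a Pearson r of 0.85 (Spearman rho 0.67), at 0.24 once each group was centred on its own mean, and at 0.94 without nANGPTL4 AAV libraries 1 and 3. Arntl and Cry1 went from 0.75 (rho 0.69) to -0.12 on centring, and stood at 0.79 without nANGPTL4 AAV libraries 2 and 3. Clock and Cry1 went from 0.71 (rho 0.76) to -0.59, and stood at 0.67 without nANGPTL4 AAV libraries 1 and 3. Dbp and Nr1d1 stood at 0.93 (rho 0.81) before and 0.92 after centring, and at 0.84 over the 6 libraries left without nANGPTL4 AAV libraries 2 and 3. Dbp and Arntl stood at -0.83 (rho -0.76) and -0.75, and at -0.53 without those libraries. Values with libraries left out keep the group difference that centring removes, because the libraries kept span both groups. Which libraries were left out differed between pairs. These pairs were chosen after their values were seen, and the differences between them were not tested. Per1 and Ciart, also chosen so, stood at 0.95 (rho 1.0) and 0.95, and at 0.86 without nANGPTL4 AAV libraries 1 and 2.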
